A study of Oryza sativa with 9 samples.

Results

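The 6 genes described here belong to the NAC family of plant transcription factors and were followed across 3 rice genotypes held in the cold. They are SNAC1 (LOC_Os03g60080), OsNAC6 (LOC_Os01g66120), OsNAC5 (LOC_Os11g08210), OsNAC10 (LOC_Os11g03300), ONAC045 (LOC_Os11g03370) and OsNAC3 (LOC_Os07g12340). These 6 were taken by locus identifier from the 55801 loci of the count table, all 6 were measured, and all 6 passed the filter on low counts that left 26112 loci for testing. The identifiers place them on chromosomes 3, 1, 11, 11, 11 and 7. OsNAC6, OsNAC5, ONAC045 and OsNAC3 were also found under these names, on the same chromosomes, in a rice reference gene table of assembly ASM3414082v1, whereas the names SNAC1 and OsNAC10 could not be checked there.

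RNA was sequenced from shoots of seedlings at the stage of 4 leaves, all in the ZH11 background and all kept at 4 °C for 2 d. There were 3 libraries each of wild type (WT), of an ossro1c knockout and of an osdreb2b knockout. Libraries of unchilled plants were not analysed here, so every difference given here is between genotypes in the cold and none is a response to cold. The labels do not say how many mutant lines were used or whether replicates were separate plants, and the p-values reflect no more than the spread among the libraries sequenced, which may be technical.

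NAC proteins bind DNA through a conserved domain at their amino end and activate or repress transcription through a variable carboxyl end. A stress-responsive subgroup in rice is induced by drought, salt, cold or abscisic acid, and overexpression of several of its members raises tolerance to drought or salt. SNAC1 is known for its induction in guard cells under drought, and OsSRO1c, a member of the plant SRO family that acts in stomatal closure and oxidative stress, is a known direct target of SNAC1. OsSRO1c is also a gene that the study knocked out, and the study places its product in a complex with the AP2/ERF factor OsDREB2B.

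Library totals ran from 58398026 to 69336224 counts. Levels are CPM, the counts per 1000000 of a library total scaled by the trimmed mean of M-values (TMM), changes are on the log2 scale with their standard error (SE), and adjusted p-values come from edgeR's quasi-likelihood test over all 26112 genes, with a threshold of 0.05. The labels of the mutants were first read against the genes they name. The mean level of OsSRO1c (LOC_Os03g12820) was 2049 CPM in WT, while ossro1c libraries held 415 CPM and osdreb2b libraries 134 CPM. OsDREB2B (LOC_Os05g27930) had 169, 68.8 and 311 CPM in the same order, so that each targeted transcript was lower under the label of the other mutant than under its own. Groups are therefore called by their labels, and every direction stated belongs to the libraries that carry that label. Replicate 3 of the ossro1c label stood apart from replicates 1 and 2: scatter over genes was 84.2 to 84.4 times that of count sampling in pairs that hold it and 8.57 to 14.3 times in all other pairs within groups. Values without it are given below for the 6 genes and for most of the other genes named. Of 5 shoot markers, all 5 were detected in every library, with summed levels of 8921 to 9336 CPM in WT, 7559 to 10893.8 CPM in ossro1c libraries and 23422 to 25028 CPM in osdreb2b libraries, most of it OsRBCS3 in WT (6660.09 CPM). All 5 were higher than WT in osdreb2b. In ossro1c, CAB1R and LHCB2 were at 18.1% and 38.8% of WT and OsRBCS5 at 175%, all called, so the sum hides members that moved opposite ways. Of 5 root markers, Lsi2 had 0 counts in every library, and the summed level was 2.73 to 3.25, 16.6 to 20.7 and 8.97 to 12.2 CPM in WT, ossro1c and osdreb2b libraries. Lsi1 alone made up most of these sums (means 2.42, 17.5 and 10.2 CPM), while the OsIRT1 means of 0.295, 0.0917 and 0.119 CPM went the other way without passing the test. Lsi1 and OsNAR2.1 (means 0.173, 0.600 and 0.117 CPM) were called higher than WT under ossro1c. That call of OsNAR2.1 was lost in 8 of 16 alternatives. RCc3 did not pass against WT under either label with all 9 libraries fitted. Of 2 genes of dividing cells, OSH1 had 0 counts throughout and CDKB2;1 averaged 7.49, 7.74 and 27.3 CPM. The 3 senescence genes summed to 841 to 851, 598 to 644 and 1005 to 1032 CPM, most of it NYC1. Under the osdreb2b label NYC1 was higher than WT, whereas SGR and NYC3 were lower (-1.18 and -0.36 on the log2 scale). Their part in the results was not tested. COLD1 (LOC_Os04g51180), the gene the study places downstream of the complex, averaged 51.4, 30.0 and 32.2 CPM.

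All 6 stress NAC genes were lower under the osdreb2b label than in WT, by 1.58-fold to 6.28-fold, and all 6 were lower there than under the ossro1c label. Under the ossro1c label OsNAC6, SNAC1 and ONAC045 were modestly lower than in WT, and OsNAC5, OsNAC10 and OsNAC3 did not pass the test. The calls for OsNAC6 held under each scaling tried, whereas that for SNAC1 was lost under raw library totals and upper-quartile scaling and that for ONAC045 under raw library totals. Of all tested genes, 59.6% were called between osdreb2b and WT (29.6% lower, 29.9% higher), 46.5% between osdreb2b and ossro1c (23.6% lower, 22.9% higher), and 60.9% between ossro1c and WT (31.4% lower, 29.4% higher). The study looked for genes lower than WT in both mutants, and OsNAC6, SNAC1 and ONAC045 met this under TMM, as did 21.2% of all tested genes. The 2 comparisons share the WT libraries. Lower calls in both comparisons of osdreb2b, which share the osdreb2b libraries, were made for 6 of 6 members and 12.5% of all tested genes. The members were chosen with earlier results of these data known, so setting them beside all tested genes is a description and not a test. In bulk tissue, fewer cells of a type and less RNA per cell cannot be told apart.

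**Figure D1:**
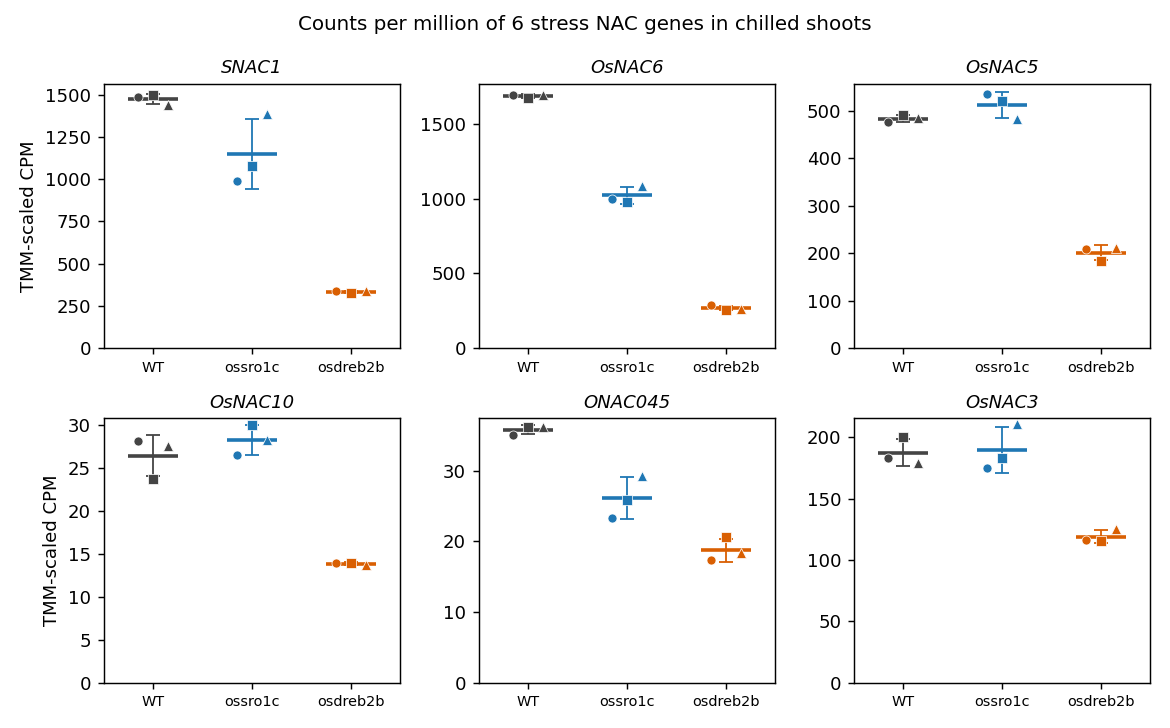
TMM-scaled CPM of the 6 stress NAC genes (vertical axes from 0) in each library of WT, ossro1c and osdreb2b; circles, squares and triangles are replicates 1, 2 and 3, horizontal lines are means and bars are SD (n = 3). Every osdreb2b library lies below every WT and ossro1c library in all 6 panels, for example at 327 to 338 CPM for SNAC1.

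SNAC1, the activator of OsSRO1c, stood at 1489, 1499 and 1440.5 CPM in WT replicates 1 to 3. Libraries labelled ossro1c held 991, 1076 and 1384 CPM, and those labelled osdreb2b held 337, 327 and 338 CPM. The osdreb2b libraries lay close together and far below WT, whereas replicate 3 of ossro1c came near to WT and the other 2 did not. The mean under the osdreb2b label was 22.6% of WT, or -2.15 on the log2 scale with SE 0.10 and an adjusted p of 6.9e-10. Under the ossro1c label it was 77.9% of WT, a change of -0.36 (SE 0.10, adjusted p = 0.0065, edgeR). Without ossro1c replicate 3 that change was -0.51 (adjusted p = 1.8e-09). It did not pass on the 6 libraries alone (-0.26, adjusted p = 0.053), under upper-quartile scaling (-0.20, adjusted p = 0.098) or under raw library totals (-0.04, adjusted p = 0.70). Raw totals place the median of all genes at 0.32, and SNAC1 lay at -0.36 relative to that median, as under TMM. A change of scaling moves all genes by nearly the same amount, so this distance cannot test the call.

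OsNAC6, also known as SNAC2, is induced by cold, salt, drought and wounding, and its overexpression has been linked with tolerance of cold and salt. Its WT libraries held 1692, 1669.9 and 1689.55 CPM, those labelled ossro1c 998, 977 and 1086 CPM, and those labelled osdreb2b 287, 254 and 264 CPM. The 3 groups did not overlap and stood in the order WT, ossro1c, osdreb2b. OsNAC6 fell 6.28-fold under the osdreb2b label, and 1251 of the 26112 tested genes (4.79%) had a lower log2 change in that comparison. Under the ossro1c label it fell to 60.6% of WT (log2 fold change -0.72, SE 0.07, adjusted p = 6.5e-07, edgeR). Without ossro1c replicate 3 it was -0.77. That change ran from -0.77 to -0.40 over the alternatives and passed in each. Between the mutant labels, OsNAC6 was lower under osdreb2b, at -1.93 on the log2 scale (SE 0.07, adjusted p = 1.2e-10).

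OsNAC5, a factor of abscisic acid and salt responses whose protein is known to bind OsNAC6 and SNAC1, had another pattern. Its CPM were 476, 491 and 485 in WT, 535, 521 and 482 in ossro1c libraries, and 209.65, 184 and 211 in osdreb2b libraries. Libraries of WT and ossro1c overlapped, and all 3 osdreb2b libraries were lower than either. The fall under the osdreb2b label was to 41.6% of WT (log2 fold change -1.26, SE 0.07, adjusted p = 4.4e-09). The ossro1c label gave 0.08 (SE 0.07, adjusted p = 0.34), with a 95% interval from -0.06 to 0.23. It passed as higher without ossro1c replicate 3 (0.12, adjusted p = 0.044), under upper-quartile scaling (0.24, adjusted p = 0.011) and under raw totals (0.40, adjusted p = 3e-04). Relative to the median of all genes it was at 0.08 under TMM and 0.09 under both of those scalings. Scaling leaves that distance nearly unchanged for any gene, so it cannot test the calls.

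OsNAC3, another gene of the stress-responsive subgroup, resembled OsNAC5 in its order of groups. WT libraries held 183, 200.1 and 179 CPM, ossro1c libraries 175, 183 and 211 CPM, and osdreb2b libraries 116, 116 and 125 CPM. WT and ossro1c overlapped fully. OsNAC3 fell under the osdreb2b label by 0.66 on the log2 scale (SE 0.08, adjusted p = 1.2e-05), the smallest of the 6 falls. The difference of ossro1c from WT was 0.01 (SE 0.08, adjusted p = 0.90; 95% interval from -0.15 to 0.18), and it passed as higher only under raw library totals (0.33, adjusted p = 0.002). There it lay 0.02 above the median of all genes, a distance that scaling hardly changes and that cannot test the call. Without ossro1c replicate 3 it was -0.07 (adjusted p = 0.31).

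OsNAC10 and ONAC045 had the lowest CPM of the 6, with at least 852 counts per library. OsNAC10, whose expression in roots from a transgene has been linked with drought tolerance, had 28.1, 23.7 and 27.5 CPM in WT, 26.5, 29.9 and 28.2 CPM in ossro1c libraries, and 14.0, 14.0 and 13.7 CPM in osdreb2b libraries. Every osdreb2b library was lower than every other. Its osdreb2b mean was 52.5% of WT (log2 change -0.93, SE 0.10, adjusted p = 2e-06). The ossro1c label gave 0.10 (SE 0.10, adjusted p = 0.42; 95% interval from -0.09 to 0.29), which passed as higher under upper-quartile scaling (0.26, adjusted p = 0.032) and raw totals (0.42, adjusted p = 0.0018).

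ONAC045, linked with drought and salt tolerance, stood at 35.1, 36.2 and 36.2 CPM in WT. Libraries labelled ossro1c held 23.4, 25.9 and 29.3 CPM, and those labelled osdreb2b 17.4, 20.6 and 18.4 CPM. No groups overlapped. Its osdreb2b mean was 52.4% of WT (log2 fold change -0.93, SE 0.10, adjusted p = 3.2e-06) and its ossro1c mean 73.1% (-0.45, SE 0.10, adjusted p = 0.0017). The latter was -0.54 without ossro1c replicate 3 and did not pass under raw totals (-0.13, adjusted p = 0.26). The ends of chromosomes 11 and 12 that hold OsNAC10 and ONAC045 carry a recent shared duplication, so counts of near-identical copies may have been split, and both genes are uncertain in that respect.

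**Figure D2:**
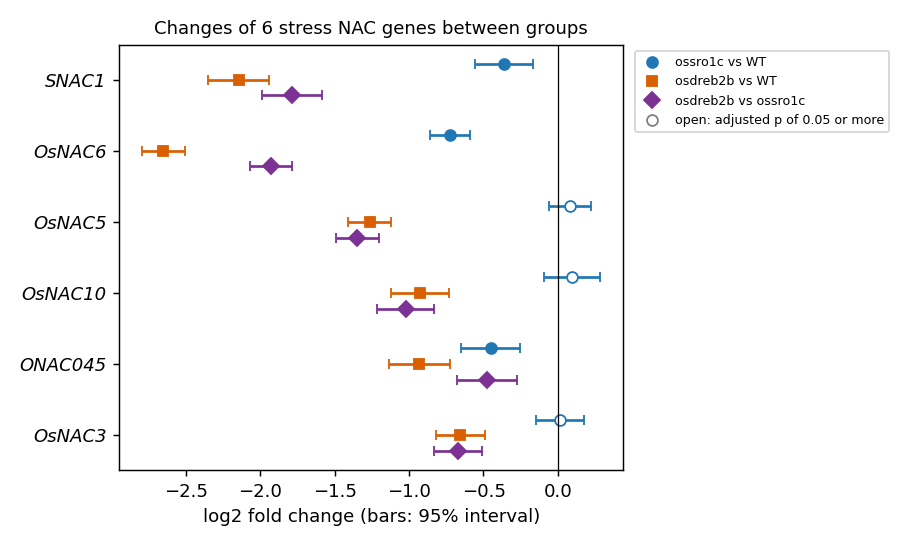
Log2 fold changes (horizontal axis) of the 6 genes for ossro1c against WT (circles), osdreb2b against WT (squares) and osdreb2b against ossro1c (diamonds); bars are 95% intervals and open symbols did not pass an adjusted p of 0.05. All squares and diamonds are filled and lie below 0, from -2.65 for OsNAC6 to -0.48 for ONAC045, while the circles lie between -0.72 and 0.10.

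Set directly against each other, the mutant labels differed in all 6 genes. The fall from ossro1c to osdreb2b was 3.45-fold for SNAC1, 3.80-fold for OsNAC6, 2.54-fold for OsNAC5, 2.03-fold for OsNAC10, 1.59-fold for OsNAC3 and 1.39-fold for ONAC045, with adjusted p-values (edgeR) from 1.2e-10 for OsNAC6 to 0.0017 for ONAC045. Without ossro1c replicate 3 the falls in the same order were 3.10-fold, 3.68-fold, 2.62-fold, 2.03-fold, 1.503-fold and 1.31-fold, and all 6 passed. This contrast is also the test of whether the changes from WT differ between the labels, since WT drops out of it. All 6 osdreb2b groups lay wholly below the ossro1c groups, as did those of 27.8% of all tested genes; 34.9% lay wholly below WT in osdreb2b and 34.7% in ossro1c. For each gene the two-sided exact permutation test gave p = 0.1, the smallest that 3 libraries against 3 allow. The same p was reached in all 6 genes for osdreb2b against WT and, for ossro1c against WT, in the 3 called genes. There OsNAC5 gave an exact p of 0.3, OsNAC10 of 0.4 and OsNAC3 of 0.9.

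**Figure D3:**
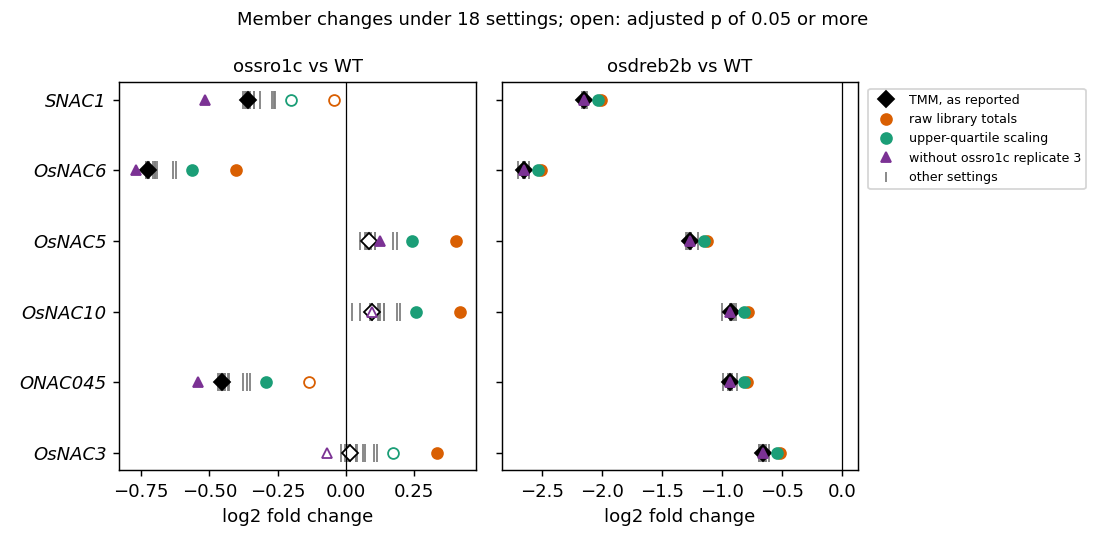
Log2 fold change (horizontal axis) of each gene for ossro1c against WT and osdreb2b against WT under TMM (diamonds), raw library totals (orange circles), upper-quartile scaling (green circles), without ossro1c replicate 3 (triangles) and the other alternatives (grey ticks); open symbols did not pass an adjusted p of 0.05. Under the osdreb2b label every value passed, with SNAC1 between -2.16 and -2.005, whereas under the ossro1c label raw totals moved SNAC1 to -0.04 and OsNAC5 to 0.40.

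As a pool, the 6 genes summed to 3894 ± 31.8 CPM in WT (SD, n = 3), 2927 ± 256 CPM in ossro1c libraries and 955 ± 35.1 CPM in osdreb2b libraries, or 75.2% and 24.5% of the WT sum. The ossro1c sum was 2781 CPM, or 71.4% of WT, without replicate 3 of that label. Most of that pool was SNAC1 and OsNAC6, by counts and without regard to transcript length. The makeup of the pool differed between labels. OsNAC6 supplied 43.2% ± 0.597 of the counts of the 6 genes in WT, 34.9% ± 1.30 in ossro1c libraries and 28.1% ± 1.05 in osdreb2b libraries. The share of OsNAC3 went the other way, from 4.82% ± 0.250 in WT to 6.47% ± 0.0910 and 12.5% ± 0.561, and that of OsNAC5 from 12.4% ± 0.203 to 17.6% ± 2.35 and 21.1% ± 0.855. SNAC1 supplied 37.9% ± 0.497, 39.1% ± 3.53 and 35.0% ± 0.690. For OsNAC6, OsNAC3, OsNAC5 and OsNAC10 the shares of the 3 groups did not overlap, while SNAC1 shares under the ossro1c label, from 36.1% to 43.0%, spanned those of WT. Leaving out ossro1c replicate 3 gave ossro1c means of 35.5% for OsNAC6, 6.43% for OsNAC3, 19.0% for OsNAC5 and 37.2% for SNAC1.

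OsSRO1c was read beside SNAC1 in each library, as the gene that SNAC1 is known to activate. SNAC1 gave 0.717, 0.740 and 0.705 counts per count of OsSRO1c in WT. The ratio was 2.62, 2.59 and 3.07 in ossro1c libraries and 2.60, 2.44 and 2.45 in osdreb2b libraries. Both mutant groups lay above WT and overlapped each other (exact permutation p = 0.1 for each against WT, the smallest possible, and 0.2 between them). The mean of ossro1c replicates 1 and 2 alone was 2.605. OsSRO1c thus fell further than SNAC1 under both labels, to 20.3% of WT under ossro1c, where it is the gene named as knocked out, and to 6.52% under osdreb2b, where SNAC1 fell to 22.6%.

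A list of 7 other genes reported as targets of stress NAC factors was read from the same fit. Under the ossro1c label 5 of these 7 were lower and 0 higher, and under the osdreb2b label 4 were lower and 2 higher. Of all tested genes, 31.4% were called lower and 29.4% higher under ossro1c, and 29.6% lower and 29.9% higher under osdreb2b. The median log2 changes of the 7 were -0.78 and -0.63, beside 0.00 and 0.03 over all tested genes. For ossro1c OsNAS1 passed as higher under raw library totals (0.73). OsNAS2 did so under raw totals (0.70), upper-quartile scaling (0.55), a filter of at least 1 CPM in 3 libraries (0.48) and without ossro1c replicate 2 (0.51), and stood at 0.14 without ossro1c replicate 3.

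OsLEA3 (LOC_Os05g46480), which encodes a protein of the late embryogenesis abundant type and is raised when ONAC045 is overexpressed, and OsPM1 (LOC_Os05g31670), a plasma membrane protein gene raised with it, had the largest falls of the 7 under the osdreb2b label. OsPM1 libraries held 14.1, 15.5 and 12.9 CPM in WT, 6.44, 8.67 and 9.65 CPM in ossro1c libraries and 0.872, 0.787 and 1.009 CPM in osdreb2b libraries. These groups were apart, and OsPM1 fell 1.71-fold (adjusted p = 0.001) and 15.9-fold (adjusted p = 7.7e-10, edgeR). OsLEA3 had 8.27, 6.74 and 8.27 CPM in WT and 3.01, 2.94 and 3.40 CPM in ossro1c libraries, with no overlap. It had 13, 4 and 18 counts in the osdreb2b libraries, against 478, 383 and 482 in WT, a log2 change of -5.42 (SE 0.32, adjusted p = 5.8e-09).

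OsOAT (LOC_Os03g44150), an ornithine aminotransferase gene regulated by OsNAC6, fell to 46.3% of WT in ossro1c and 42.6% in osdreb2b libraries (log2 fold changes -1.11 and -1.23, adjusted p = 1.8e-07 and 6.3e-08). OsPP18 (LOC_Os02g05630), a protein phosphatase 2C gene regulated by SNAC1, fell to 71.1% and 64.6% (-0.49 and -0.63, adjusted p = 4.9e-05 and 4.8e-06). The fall of OsPP18 under the ossro1c label did not pass under raw library totals (-0.17, adjusted p = 0.057). Between the mutant labels OsOAT differed by -0.12 and OsPP18 by -0.14 (SE 0.09 and 0.07, adjusted p = 0.31 and 0.14), and neither passed, although both did under raw totals (-0.30 and -0.32) and OsPP18 with a filter of at least 1 CPM in 3 libraries (-0.22). With ossro1c replicate 3 left out, the changes of ossro1c from WT were -1.11 for OsOAT, -0.50 for OsPP18, -0.90 for OsPM1 and -1.38 for OsLEA3, and all 4 passed.

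The nicotianamine synthase genes OsNAS1 (LOC_Os03g19427) and OsNAS2 (LOC_Os03g19420), reported to be raised by OsNAC6, rose under the osdreb2b label, where OsNAC6 was lowest. OsNAS2 had 4.17, 3.52 and 4.15 CPM in WT, 4.46, 4.28 and 6.75 CPM in ossro1c libraries and 7.35, 7.54 and 7.67 CPM in osdreb2b libraries. OsNAS1 rose 2.85-fold (adjusted p = 6.1e-04) and OsNAS2 1.90-fold (adjusted p = 7.3e-04, edgeR). They are adjacent by identifier and share sequence, so the division of counts between them is uncertain. OsCCR10 (LOC_Os02g56700), a lignin synthesis gene linked with OsNAC5, had 5, 14 and 13 counts in WT, 0 in each ossro1c library and 60, 22 and 38 in the osdreb2b libraries. Against a floor of 3 counts per ossro1c library, the WT mean was 4.51-fold higher and the lowest WT library 2.11-fold higher. The osdreb2b label did not pass against WT (adjusted p = 0.084; 0.029 with only those 6 libraries fitted).

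**Figure D4:**
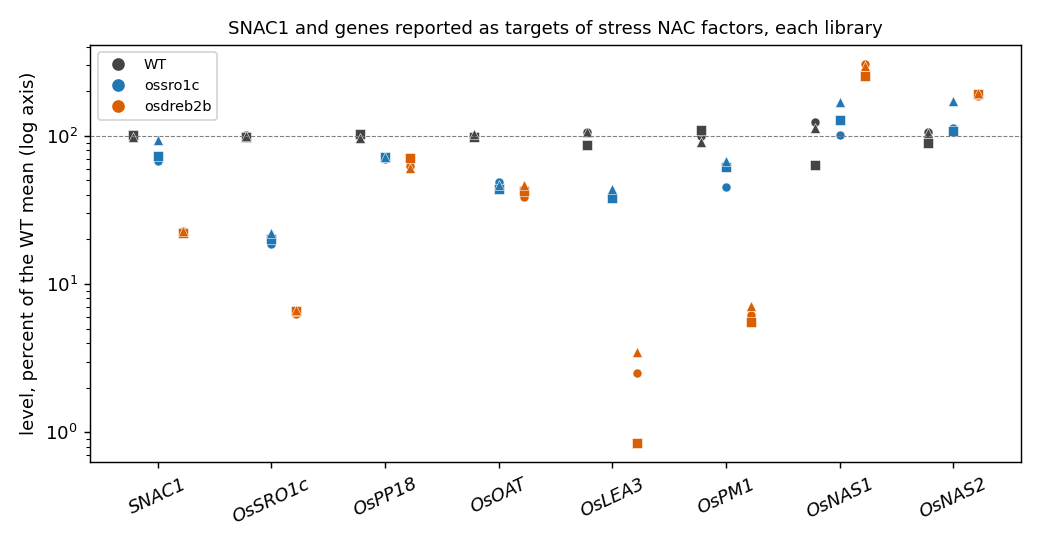
Level of SNAC1, OsSRO1c and 6 other genes reported as targets of stress NAC factors in each library, as percent of the WT mean on a log axis (dashed line, 100); dark points are WT, blue ossro1c and orange osdreb2b, with circles, squares and triangles for replicates 1, 2 and 3. OsLEA3 and OsPM1 lie at 2.29% and 6.28% of WT on average under the osdreb2b label, and OsNAS1 and OsNAS2 lie above 100; OsCCR10, at 0 counts under the ossro1c label, is left out.

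A list of 18 other NAC genes, known from stress, disease, senescence or microRNA studies, held calls in both directions, as did all tested genes. Under the osdreb2b label 7 of 18 were higher and 6 lower (median log2 change -0.05; 0.07 and 0.09 under upper-quartile scaling and raw totals), and under the ossro1c label there were 7 lower and 7 higher, with a median of -0.08 that became 0.24 with raw totals and 0.02 without ossro1c replicate 3, where 6 were lower and 6 higher. Of all tested genes, 29.6% were called lower and 29.9% higher under osdreb2b, and 31.4% lower and 29.4% higher under ossro1c. Over all 24 listed NAC genes, 12 were lower and 7 higher under the osdreb2b label, and 10 lower and 7 higher under ossro1c. The 6 stress NAC genes and 6 of the other 18 made up these 12.

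OsNAC4 (LOC_Os01g60020), known for a part in hypersensitive cell death, had the lowest log2 changes of the 24 under both labels, close to OsNAC6 under osdreb2b. It had 402, 382 and 388 CPM in WT, 70.4, 70.2 and 83.5 CPM in ossro1c libraries and 63.3, 61.6 and 59.5 CPM in osdreb2b libraries. Both mutant groups were far below WT, by 5.23-fold and 6.35-fold (adjusted p = 4.3e-11 and 1.3e-11, edgeR). OsNAC17 (LOC_Os03g21030), linked with drought tolerance and lignin, fell to 43.3% of WT under ossro1c and 55.6% under osdreb2b. Its fall was larger under the ossro1c label, and the direct difference of 0.36 (SE 0.07, adjusted p = 7.2e-04) passed. OsNAC52 (LOC_Os05g34830), linked with abscisic acid and drought responses, fell by 1.22 and 2.42 on the log2 scale. On ossro1c replicates 1 and 2 alone, the ossro1c changes were -2.47 for OsNAC4, -1.26 for OsNAC17 and -1.40 for OsNAC52, and OsNAC17 still differed between the labels (0.41).

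OsNAP (LOC_Os03g21060), a regulator of leaf senescence, went opposite ways under the labels, from 14.3 ± 1.29 CPM in WT (SD, n = 3) to 23.6 ± 0.702 CPM under ossro1c and 9.26 ± 1.10 CPM under osdreb2b. It was higher by 0.73 (adjusted p = 9.5e-05) and lower by a log2 change of -0.62 (adjusted p = 4.1e-04), and the direct difference was -1.35 (SE 0.12, adjusted p = 4.9e-07, edgeR). In the same libraries SGR, a gene of chlorophyll breakdown, stood at 125, 99.1 and 55.0 CPM in WT, ossro1c and osdreb2b, and NYC1, of chlorophyll b breakdown, at 627, 455 and 892 CPM. OMTN1 (LOC_Os02g36880) and OMTN3 are targets of the microRNA miR164, and OMTN1 fell by 0.40 under ossro1c (adjusted p = 0.0029) and rose by 0.41 under osdreb2b (adjusted p = 0.0023). Its ossro1c call was lost under raw library totals (-0.08, adjusted p = 0.48). OMTN3 (LOC_Os12g41680) rose by 0.73 under the ossro1c label (adjusted p = 7.1e-05) and was at -0.26 under osdreb2b, which did not pass (adjusted p = 0.060) but did with only those 6 libraries fitted (adjusted p = 0.034) and without ossro1c replicate 2 or 3 (0.047 and 0.028). Without ossro1c replicate 3 the ossro1c changes were 0.75 for OsNAP, -0.46 for OMTN1 and 0.65 for OMTN3, and all 3 passed.

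ONAC095 (LOC_Os06g51070), named for roles in cold and drought responses, rose under both labels, from 8.31 ± 0.640 to 13.1 ± 1.18 and 15.5 ± 0.457 CPM. OsNAC2 (LOC_Os04g38720) rose by 0.81 under the osdreb2b label (adjusted p = 3.7e-05) and by 0.32 under ossro1c (adjusted p = 0.029), where the call was lost without ossro1c replicate 3 (0.20, adjusted p = 0.077) or WT replicate 1 (0.27, adjusted p = 0.11) or WT replicate 3 (0.32, adjusted p = 0.071). SNAC3 (LOC_Os01g09550), of heat and drought responses, was at -0.35 under ossro1c (adjusted p = 0.034, edgeR), a call lost in 8 of 17 alternatives. It was at 17.9 ± 1.06 CPM in WT and 17.97 ± 0.977 CPM under osdreb2b and did not pass there (adjusted p = 0.96). ONAC066 (LOC_Os03g56580) did not pass under osdreb2b either (log2 change -0.11, SE 0.14, adjusted p = 0.53), while under ossro1c it fell by 0.87 (adjusted p = 9.7e-05). OsNAC14 (LOC_Os01g48446) and OMTN4 (LOC_Os06g46270) did not pass under ossro1c, with changes of -0.20 (adjusted p = 0.45) and 0.04 (adjusted p = 0.87). Under osdreb2b OsNAC14 was at -1.29 (adjusted p = 2.1e-04) and OMTN4 at 0.57 (adjusted p = 0.019, edgeR). That call of OMTN4 was lost in 4 of 17 alternatives. Fitted without ossro1c replicate 3, the ossro1c changes were 0.58 for ONAC095, -0.82 for ONAC066 and 0.06 for OsNAC14.

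ONAC131 (LOC_Os12g03040) is the copy of OsNAC10 on chromosome 12, and both are linked with resistance to blast disease. It stood at 58.2 ± 4.38 CPM in WT, 34.0 ± 0.763 CPM under ossro1c and 23.8 ± 1.29 CPM under osdreb2b. It fell under the ossro1c label by 0.77 on the log2 scale (SE 0.09, adjusted p = 3.1e-06), where OsNAC10 was at 0.10. Both changes were the same to 2 decimals without ossro1c replicate 3 (-0.77 and 0.10). OsNAC10 gave 0.445, 0.430 and 0.488 counts per ONAC131 count in WT, 0.792, 0.858 and 0.837 under ossro1c, and 0.606, 0.605 and 0.542 under osdreb2b. The 3 groups of ratios did not overlap (exact permutation p = 0.1 for each pair, the smallest possible). Counts of near-identical copies may have been split, so the ONAC131 level and this ratio are uncertain in that respect.

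**Figure D5:**
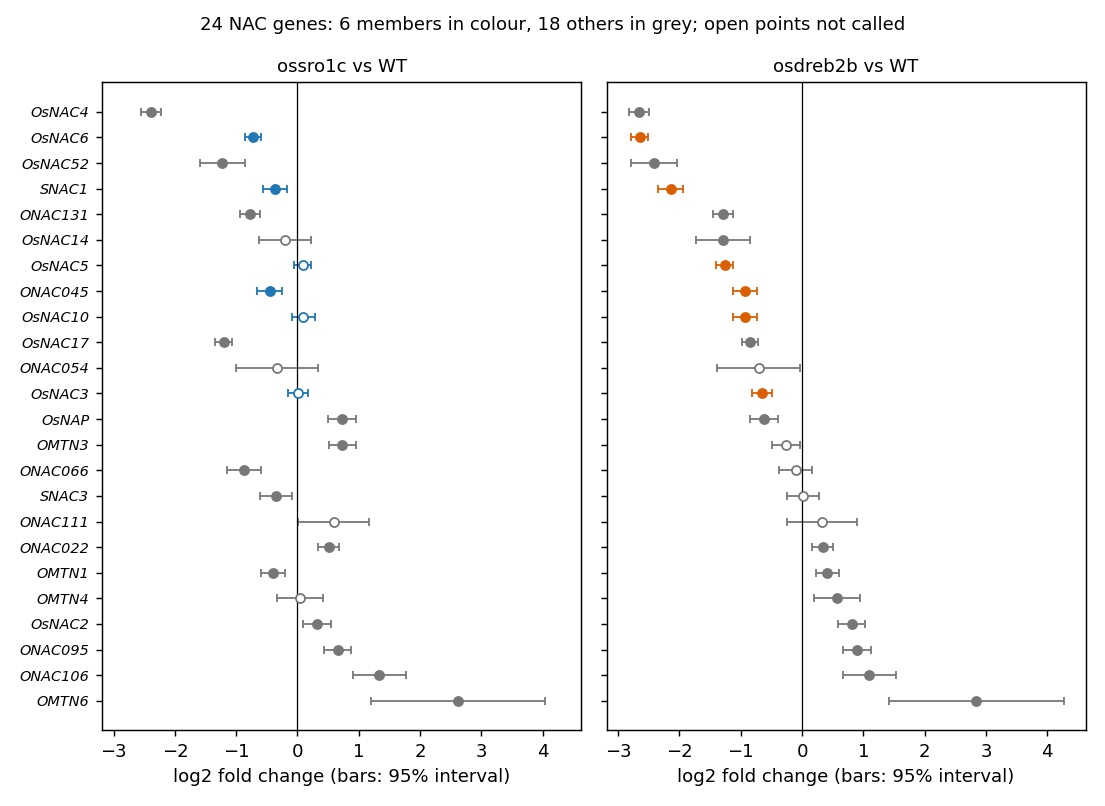
Log2 fold changes (horizontal axes, bars 95% intervals) of 24 NAC genes for ossro1c against WT and osdreb2b against WT, with the 6 stress NAC genes in colour and the 18 others in grey; open points did not pass an adjusted p of 0.05. Coloured points are all below 0 in the osdreb2b panel, between -2.65 and -0.66, and grey points run from -2.67 for OsNAC4 to 2.84 for OMTN6.

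Likeness of pattern was described by Pearson's r of log2 CPM over the 9 libraries, which fall into 3 groups and so share few degrees of freedom. Among the 6, SNAC1 was most like OsNAC6 (r = 0.9895) and least like ONAC045 (r = 0.925), OsNAC5 was most like OsNAC10 (r = 0.976), and OsNAC5 and ONAC045 were the least alike (r = 0.791). Of the 41 other listed genes with a value, OsPM1 was most like SNAC1 (r = 0.996), OsNAC5 (r = 0.959), OsNAC10 (r = 0.944) and OsNAC3 (r = 0.964), SGR was most like OsNAC6 (r = 0.994), and OsSRO1c was most like ONAC045 (r = 0.971). Among 14008 tested loci with a mean of at least 5 CPM, 63 reached an r of 0.99 with SNAC1, 83 with OsNAC6, 16 with OsNAC5, 4 with ONAC045, 2 with OsNAC3 and 1 with OsNAC10. The loci most like SNAC1 were LOC_Os07g07410 (r = 0.999) and LOC_Os01g63210 (r = 0.998), the latter at 471 ± 8.48 CPM in WT, 333 ± 64.4 CPM under ossro1c and 93.1 ± 4.56 CPM under osdreb2b.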

How the data were processed

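The authors deposited raw counts per locus for 9 libraries, not normalised. Tools listed, with no role or order, in the submitters' processing notes were StringTie 2.1.4, fastp 0.23.4, DESeq2 and HISAT2 2.2.1. Genome build, annotation and strand use: not given in the sources used here, so no coordinates are printed. Groups came from the titles, and 0 columns were left unused.

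Counts were filtered by filterByExpr, which left 99.96% to 99.98% of the counts of each library, and scaled by TMM. The robust quasi-likelihood test of edgeR 4.0.16 under R 4.3.3 used a model of group means on the 9 libraries together, with Benjamini-Hochberg adjustment. SE is the absolute log2 fold change over the square root of F. The fit was tested on simulated data built from the WT profile, with few changed genes and those under the osdreb2b label only. Far more genes were called in the real libraries, so that simulation cannot test the choice of scaling. Log2 CPM used a prior count of 2. DESeq2 1.42.0, other scalings and filters, the replicate number as a block, a fit on the 6 libraries compared and each library left out were the alternatives.

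The members and gene lists were chosen with earlier results of these data known. Named genes are the members, 3 study genes, all reported targets, and of the other NAC genes the 4 with the smallest adjusted p per comparison and up to 2 that did not pass; OsNAC2, ONAC095 and OMTN6 fall outside that rule and were named after their values were seen. Of 49 listed names, 22 were found in the reference table, all on the chromosome of the identifier, and 27 could not be checked.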

Additional observations from a re-analysis of the deposited data

How the results depend on the processing

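Over 17 alternatives in 3 comparisons, 296 of 306 values of the 6 genes kept their side of the threshold. Of the others, 4 lost their call, 6 gained one and 0 reversed while called. All 10 exceptions concern ossro1c against WT and are given above. Values that did not pass were counted as kept even where their sign changed, as for OsNAC3 in ossro1c against WT (0.01, and -0.07 without ossro1c replicate 3). Over all listed genes, the 6 included, 2280 of 2380 values kept their side of the threshold, 70 lost a call, 29 gained one and 1 reversed. The reversal was CAB2R, which did not pass for ossro1c against WT but passed as lower without ossro1c replicate 3. Its range was -0.23 to 0.16 over left-out libraries. OsRBCS3 also gained a lower call without that replicate (-0.41, adjusted p = 5.1e-10, edgeR). No other NAC count depended on a scaling by over 1.5 times, but direction did: under raw totals 1 member was lower and 3 higher in ossro1c, against 3 and 0 under TMM. Raw totals split the calls of ossro1c against WT into 10264 higher and 5971 lower (7685 and 8207 under TMM), and those between the mutants into 4398 and 8054 (5974 and 6173). Limiting lists to names found in the reference table, an alternative chosen after seeing the data, left 2 other NAC genes called in each comparison, and 2, 4 and 3 reported targets called for ossro1c and osdreb2b against WT and between the mutants, since fewer genes remained.

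Replicate numbers are shared by the groups but do not pair the libraries: deviations of same-numbered libraries correlated at -0.009 to 0.022, others at -0.036 to 0.025. With the replicate block, 15666, 15264 and 11821 genes were called, against 15892, 15562 and 12147, and the members called stayed at 3, 6 and 6. Low counts limit genes such as OsCCR10, OMTN6, RCc3 and OsIRT1, which had 0 counts in at least 1 library.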

Other observations

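Tested loci next to the 6 genes, 2 on each side by identifier and 22 in all, held calls in both directions. Under the osdreb2b label 8 of them were lower and 12 higher (median log2 change 0.50), and under the ossro1c label 5 were lower and 7 higher (median 0.29). Of all tested genes, 29.6% were called lower and 29.9% higher under osdreb2b (median 0.03). Under ossro1c 31.4% were called lower and 29.4% higher (median -0.001).

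OsDREB2B and SNAC1 stood in different proportions in each group. OsDREB2B is the gene named as knocked out under the osdreb2b label, yet it was higher than WT there. Its change of 0.88 and that of SNAC1 of -2.15 on the log2 scale already set the ratio under that label apart from WT. OsDREB2B gave 0.113, 0.111 and 0.120 counts per SNAC1 count in WT, 0.0665, 0.0562 and 0.0577 under the ossro1c label, and 0.948, 0.916 and 0.930 under the osdreb2b label, with no overlap between groups (exact permutation p = 0.1, the smallest that 3 libraries against 3 allow).

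Among the ossro1c libraries, replicate 3 was the highest for SNAC1, OsNAC6, ONAC045 and OsNAC3 and the lowest for OsNAC5. The highest exceeded the lowest 1.40-fold for SNAC1 and 1.11-fold for OsNAC6 and OsNAC5.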
